A study of Mus musculus with 53 samples.

Results

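The activity-induced immediate early genes followed here are 10 listed genes, Fos, Fosb, Junb, Egr1, Egr2, Egr3, Egr4, Arc, Nr4a1 and Npas4, found in the table by their symbols. Of these, 9 were among the 12372 genes of the deposited count table, and Egr2 had no row there. They lie on chromosomes 12 (Fos), 7 (Fosb), 8 (Junb), 18 (Egr1), 14 (Egr3), 6 (Egr4), 15 (Arc and Nr4a1) and 19 (Npas4) of the mouse genome. Each of the 9 was read in 53 poly-A RNA sequencing libraries from brainstem, cerebellum, cortex and striatum of 14 mice.

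Immediate early genes are transcribed within minutes of synaptic activity or growth factor signalling, without the need for new protein. Calcium and cAMP signalling in an active neuron reach factors that are already present, such as CREB and SRF, which switch on the genes described here. In the forebrain, their RNA and protein are widely used as a record of recently active neurons.

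The SCA3 group carried MJD84.2, a transgene with the whole human ATXN3 locus, driven by its own promoter and carrying a lengthened CAG tract, and the control group was wild-type C57BL/6. All were males, were untreated, had gone through beamwalk and rotarod tests at younger ages, and were killed at 17.5 months of age (74 to 77 weeks). The 8 wild-type mice gave 8 brainstem, 7 cerebellum, 7 cortex and 8 striatum libraries, and the 6 SCA3 mice gave 6, 6, 6 and 5. Mouse numbers fell into 3 series, called A (7267054 to 7267059, 3 wild-type and 2 SCA3 mice), B (9082853 and 9082857, 1 and 1) and C (9083371 to 9083515, 4 and 3) here, and the labels do not say what these series stand for. In series C the wild-type mice were numbers 9083371 to 9083375, aged 75 weeks, and the SCA3 mice 9083513 to 9083515, aged 74 weeks. Within that series genotype, mouse number and age thus cannot be told apart. Levels are given as CPM, in which the counts of every library are scaled to the same total.

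Library totals ran from 31.7 to 76.7 M counts (median 57.7 M), and RNA integrity (RIN) from 5.7 to 9. The mouse Atxn3 row does not count the human transgene separately, and its SCA3 and wild-type libraries overlapped in brainstem, cerebellum and cortex, so that it checked no genotype label there. Summed CPM of cerebellar granule and Purkinje cell markers ran from 4886 to 7046 in cerebellum and up to 548 elsewhere, those of striatal projection neurons from 2814 to 11727 in striatum and up to 5166 elsewhere, and those of cortical glutamatergic neurons from 974 to 4285 in cortex and up to 1919 elsewhere. Of 9 brainstem neuron markers 1 had a row, so that this label could not be checked. The wild-type striatum libraries of mice 7267058 and 7267059 stood apart, with summed CPM of 12 thalamus markers of 2327 and 3777, against 379 to 835 in the other striatum libraries. The genotype values of the 9 genes in striatum, those of the called pathway genes and the co-variation among the 9 genes in striatum are given with and without these 2 libraries. In pieces of tissue, fewer cells of a type and less RNA per cell cannot be told apart.

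To show the regulatory sequence the genes share, the 250 bases upstream of the start site were taken from RefSeq promoters (GRCm38.p6), which had entries for 7 of the 10 genes: Fos, Fosb, Junb, Egr2, Egr4, Nr4a1 and Npas4. The core of the cAMP response element, TGACG on either strand, lay in the window of 7 of 7 of these genes, against 19.8% of the 27025 genes with a promoter entry. The complete palindrome TGACGTCA, which contains that core, lay in 0 of 7, against 1.77% of all genes, and the AP-1 site TGACTCA in 0 of 7, against 5.16%. The CArG box bound by SRF lay in 1 of 7 (Egr2), against 1.62%, and TATAAA in 1 of 7 (Fos), against 14.3%. These are matches of letters and no measure of binding. The windows of 4 genes on which the results turn are printed 5′ to 3′ on the strand of the gene, with the matches to the motifs in capitals. They are chr12:85473640-85473889 (plus strand, Fos), chr8:84978749-84978998 (minus strand, Junb), chr6:85513590-85513839 (minus strand, Egr4) and chr19:4989972-4990221 (minus strand, Npas4).
Fos: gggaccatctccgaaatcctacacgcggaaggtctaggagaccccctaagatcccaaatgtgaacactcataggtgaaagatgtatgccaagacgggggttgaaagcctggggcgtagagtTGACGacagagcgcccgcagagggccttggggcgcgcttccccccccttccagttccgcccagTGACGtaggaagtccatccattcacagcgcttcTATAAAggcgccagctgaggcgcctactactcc
Junb: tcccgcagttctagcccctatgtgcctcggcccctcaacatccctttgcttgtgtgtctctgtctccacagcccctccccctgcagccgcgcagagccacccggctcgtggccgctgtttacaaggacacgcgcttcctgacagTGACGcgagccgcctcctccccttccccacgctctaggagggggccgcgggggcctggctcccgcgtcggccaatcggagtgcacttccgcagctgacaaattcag
Egr4: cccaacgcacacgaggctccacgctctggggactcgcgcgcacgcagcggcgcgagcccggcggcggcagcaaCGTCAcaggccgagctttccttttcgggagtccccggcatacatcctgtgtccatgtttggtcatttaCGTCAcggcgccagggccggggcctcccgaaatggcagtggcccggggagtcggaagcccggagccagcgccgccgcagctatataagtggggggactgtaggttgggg
Npas4: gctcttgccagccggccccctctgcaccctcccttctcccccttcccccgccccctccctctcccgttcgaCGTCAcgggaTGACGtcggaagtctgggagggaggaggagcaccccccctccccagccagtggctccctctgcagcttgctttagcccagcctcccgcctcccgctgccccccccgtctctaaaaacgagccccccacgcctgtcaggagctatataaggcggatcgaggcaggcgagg
In the Fos window the core occurred at -129 to -125 and at -66 to -62 relative to the start site and TATAAA at -33 to -28, whereas Junb held 1 core at -106 to -102. Egr4 and Npas4 held 2 each, those of Npas4 lying closest together, at -179 to -175 and -169 to -165.

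In wild-type mice, 8 of the 9 genes were expressed far lower in brainstem and cerebellum than in cortex and striatum, and Fos was the exception. Among the AP-1 factors, Fos, whose protein pairs with Jun proteins to bind AP-1 sites, had its lowest, median and highest wild-type CPM at 12.1, 19.6 and 35.0 in brainstem (n = 8), at 5.62, 37.4 and 63.3 in cerebellum (n = 7), at 13.9, 24.98 and 63.5 in cortex (n = 7) and at 10.97, 19.0 and 30.6 in striatum (n = 8). The 4 regions thus overlapped, and the cerebellum held both the lowest wild-type library and one close to the highest. Fosb, a close relative whose stable splice form builds up with repeated activity, ran from 2.22 through 3.23 to 4.95 CPM in brainstem and from 0.613 through 1.90 to 2.93 in cerebellum. In cortex it ran from 11.7 through 19.0 to 25.2 and in striatum from 5.37 through 19.9 to 26.6. Junb, a Jun partner of these factors, lay at medians of 8.12 in brainstem and 7.89 in cerebellum and of 41.4 in cortex and 53.6 in striatum. It overlaps Prdx2 on the opposite strand by 351 bases, and since the libraries were not strand-specific, reads of the overlap cannot be assigned by strand.

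The Egr genes code for zinc finger factors that bind GC-rich sites. Per length, Egr1 was the most abundant of the 9 genes in brainstem, cortex and striatum: its wild-type median of CPM per kilobase of exon was 14.02 in brainstem, 81.1 in cortex and 96.0 in striatum. In cerebellum it was 13.98 CPM per kilobase, below Fos (17.7) and Nr4a1 (15.3). In CPM, Egr1 ran from 27.0 through 42.6 to 60.3 in brainstem, from 38.7 through 42.4 to 49.5 in cerebellum, from 131 through 246 to 740 in cortex and from 87.9 through 291 to 542 in striatum. Egr3 had the widest regional range, running in wild-type from 1.81 to 8.43 CPM in brainstem, from 0.440 to 2.56 in cerebellum, from 74.4 to 263 in cortex and from 47.1 to 257 in striatum. Egr4 had medians of 0.783, 3.83, 26.7 and 38.9 CPM in the same order, and in 1 wild-type brainstem library it rested on 6 counts.

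Nr4a1, an orphan nuclear receptor, had wild-type medians of 14.6 CPM in brainstem, 37.8 in cerebellum, 82.8 in cortex and 104 in striatum. Npas4, a neuronal bHLH-PAS factor induced by calcium entry, lay at 6.36, 6.996, 22.2 and 28.4. Arc, whose protein acts at synapses in the removal of AMPA receptors, lay at 36.8, 24.97, 95.2 and 123, and reached 566 in the cortex of mouse 9083373, the highest library of the gene. The same library was the highest in cortex for 8 of the 9 genes in wild-type mice, Npas4 being the exception, and that of mouse 7267055 the lowest for 9 of 9.

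**Figure D1:**
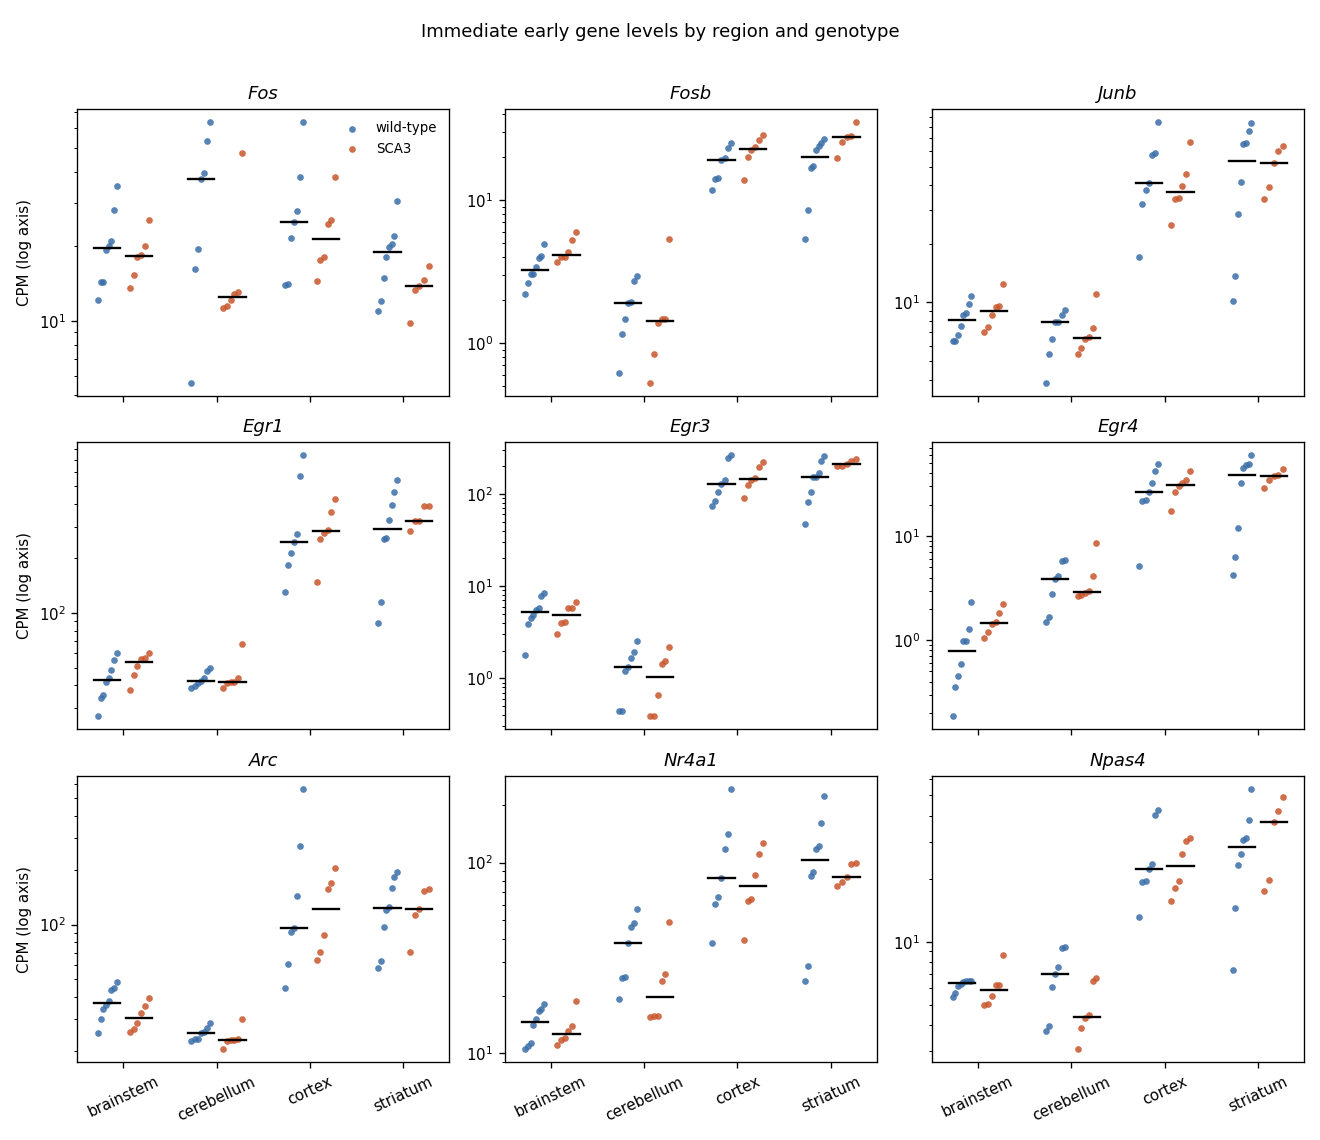
CPM of the 9 genes (log axis) in each library of brainstem, cerebellum, cortex and striatum, with wild-type in blue and SCA3 in orange and black bars at the medians. In 8 panels the cortex and striatum stand above brainstem and cerebellum, in the Fos panel they do not, and within every region the colours overlap.

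To order the regions, wild-type libraries were compared in an edgeR likelihood ratio test over all genes, in which a gene is called at a false discovery rate (FDR) below 0.05. Brainstem was lower than cortex for 8 of 9 genes, where 34.3% of all genes were called lower, and lower than striatum for 8 of 9, where 32.7% were. Cerebellum was lower than cortex for 8 of 9 (35.5% of all genes) and lower than striatum for 8 of 9 (35.3%). In each of these 4 comparisons the gene not called lower was Fos, and the median log2 difference over the 9 genes was -2.53, -2.56, -2.87 and -2.77, against -0.02 to 0.00 over all genes. Egr3 differed most, with cerebellum lower than cortex by a log2 difference of -6.78 (SE 0.36, FDR 1.59e-48), and Egr4 was lower in brainstem than in striatum by -5.15 (SE 0.41, FDR 4.22e-25). Nr4a1 had the smallest difference of the 8 between cerebellum and striatum, at -1.52 (SE 0.33, FDR 1.58e-05).

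Between brainstem and cerebellum, 2 genes were higher in brainstem, where 37.6% of all genes were, namely Egr3 by 1.97 (SE 0.35, FDR 1.61e-07) and Fosb by 0.91 (SE 0.31, FDR 0.00619). The genes lower in brainstem were 3, where 35% of all genes were: Egr4 by -2.01 (SE 0.42, FDR 7.22e-06), Nr4a1 by -1.38 (SE 0.33, FDR 6.36e-05) and Fos by -0.71 (SE 0.34, FDR 0.0480). Cortex and striatum were not told apart for any of the 9 genes in edgeR, DESeq2 or limma-voom, where 34.4% of all genes were called in either direction; 0 of 9 reached an unadjusted p below 0.05, where 43.5% of all genes did, and the log2 differences ran from -0.18 to 0.65. Fos was higher in cerebellum than in striatum by 0.85 (SE 0.34, FDR 0.0179). Both Fos calls were weak: that between brainstem and cerebellum was lost in 18 of 24 alternatives (FDR from 0.0166 to 0.264), among them leaving out any mouse but 7267059, 9082857 and 9083513 (up to 0.228 without mouse 9083371), and that between cerebellum and striatum in 5 of 25 (FDR from 0.00559 to 0.112), among them leaving out mouse 9083371 (0.111) and the 2 striatum libraries high in thalamus markers (0.0851). The wild-type libraries of 2 regions did not overlap for 1 gene between brainstem and cerebellum (48.1% of all genes), 7 between brainstem and cortex (29.3%), 7 between brainstem and striatum (19.2%), 6 between cerebellum and cortex (41.9%), 5 between cerebellum and striatum (37%) and 0 between cortex and striatum (4.66%).

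The genes varied between mice more than most. The SD of log2 CPM around the means of region and genotype lay between 0.55 (Npas4) and 0.93 (Egr4), against a median of 0.16 over all genes, and the biological coefficient of variation from edgeR between 0.355 and 0.556, against a median of 0.113. Region accounted for 74.8% to 95.2% of the variance of 8 genes and for 8.69% of that of Fos. Of the spread left within groups, differences between mice that all regions shared took 66.8% for Fos, 68.9% for Egr4 and 62.5% for Junb, against 36.4% at the median of all genes and 32.2% for Egr3.

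Within a region, the levels of the genes varied together from library to library. Over the 36 pairs of genes, the median Pearson's r of deviations from the genotype means was 0.457 in brainstem (14 libraries), 0.575 in cerebellum (13), 0.828 in cortex (13) and 0.879 in striatum (13), against medians close to 0 over all pairs of genes in the table. In brainstem 14 of 36 pairs were above 0.5 and in cerebellum 20 of 36, against 12.3% and 13.3% of all gene pairs. In cortex and in striatum 36 of 36 were, against 16.2% and 15.6%. Egr3 stood apart in cerebellum, where its median r with the other genes was 0.036, and Npas4 in brainstem, where it was 0.137. These values are descriptions over libraries that share depth, RIN and tissue composition with the gene levels.

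**Figure D2:**
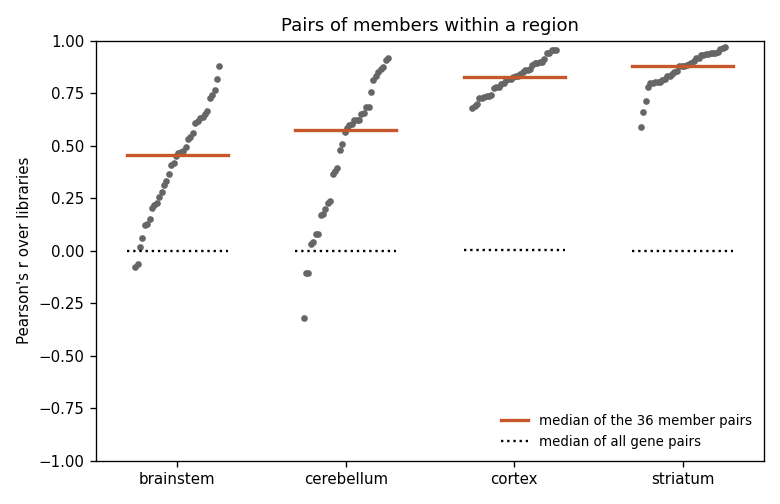
Pearson's r over libraries for each of the 36 pairs of genes (grey points, in ascending order) in each region, with their median in orange and the median of all gene pairs dotted. All 36 pairs lie above 0.5 in cortex and striatum, whereas 14 do in brainstem and 20 in cerebellum.

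The shared level in striatum moved with the thalamus markers. The mean deviation of the 9 genes had r of -0.957 with the thalamus marker score, -0.939 with that of astrocytes and 0.859 with that of striatal projection neurons over 13 libraries. Mice 7267058 and 7267059 had 9 of 9 genes under the wild-type mean, with mean log2 deviations of -1.11 and -1.57. Without these 2 libraries, an alternative chosen after seeing the data, r with the thalamus score was -0.761, the median r of the 36 pairs was 0.633, and 27 pairs were above 0.5. Fos followed the score less than the others did, with r of -0.731 in all libraries and -0.278 without the 2, whereas without the 2 Arc was at -0.86 and Fosb at -0.833. In cortex the mean deviation had r of 0.719 with cortical glutamatergic markers (7 of 10 in the table) and -0.808 with choroid plexus markers (3 of 7). In brainstem the strongest was 0.556 with cortical markers, and r with RIN was 0.41. In cerebellum the strongest was 0.514 with choroid plexus markers, and r with RIN was 0.467. The part of tissue composition in the gene levels was not tested.

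**Figure D3:**
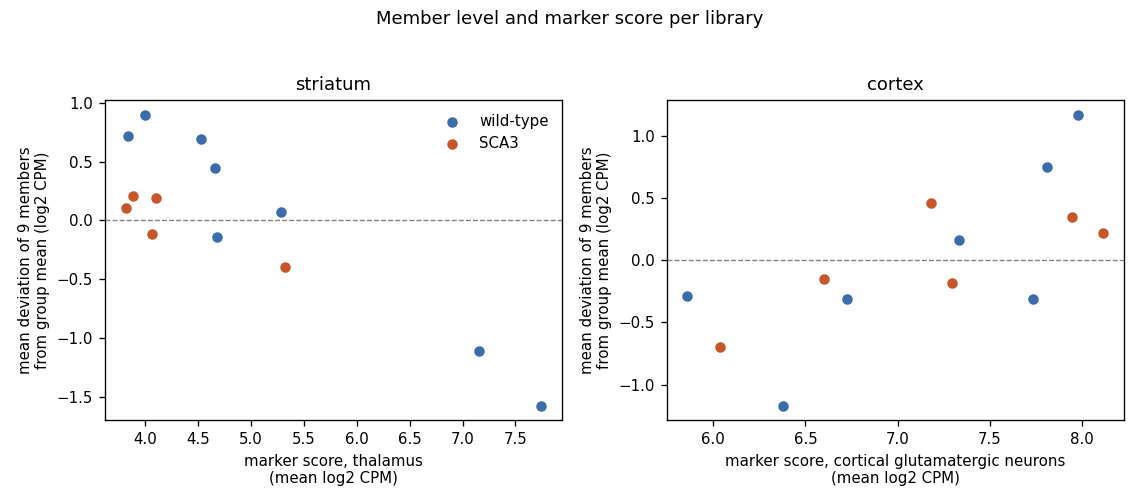
Mean deviation of the 9 genes from the group mean (log2 CPM) in each library against the mean log2 CPM of thalamus markers in striatum (left) and of cortical glutamatergic markers in cortex (right), with wild-type in blue and SCA3 in orange. The 2 wild-type striatum libraries at scores above 7 lie at -1.11 and -1.57.

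SCA3 and wild-type mice were then compared in each region. None of the 9 genes was called in brainstem, where 1.92% of all genes were, in cerebellum (0.0647%), in cortex (0.154%) or in striatum (7.54%). The libraries of the genotypes overlapped for 9 of 9 genes in each region, and 1.38%, 0.234%, 0.251% and 0.655% of all genes did not overlap in brainstem, cerebellum, cortex and striatum. In cerebellum 1 gene (Fos) had an unadjusted p below 0.05, where 1.66% of all genes did, and in the other regions 0 did, where 13.3% did in brainstem, 4.07% in cortex and 23.2% in striatum. DESeq2 and edgeR's quasi-likelihood test also called 0 of 9 in each region. The median log2 fold change of the 9 genes was -0.02 in brainstem, -0.08 in cerebellum, -0.20 in cortex and 0.16 in striatum, against 0.00 over all genes in each. A combined test of the genotype over the 4 regions called 0 of 9 (4.73% of all genes), and a test of whether the genotype effect differed between regions called 0 of 9 (0.218%). Both tests took the libraries of a mouse as independent. With standard errors of 0.28 to 0.46 on the log2 scale, the 95% intervals left room for changes of more than 0.5 in at least one direction for every gene and region. These intervals rest on 1 dispersion per gene over the 4 regions, and do not follow the spread within a single region. In wild-type cerebellum Arc ran from 22.6 to 28.7 CPM and Fos from 5.62 to 63.3, with SE of 0.34 and 0.36.

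**Figure D4:**
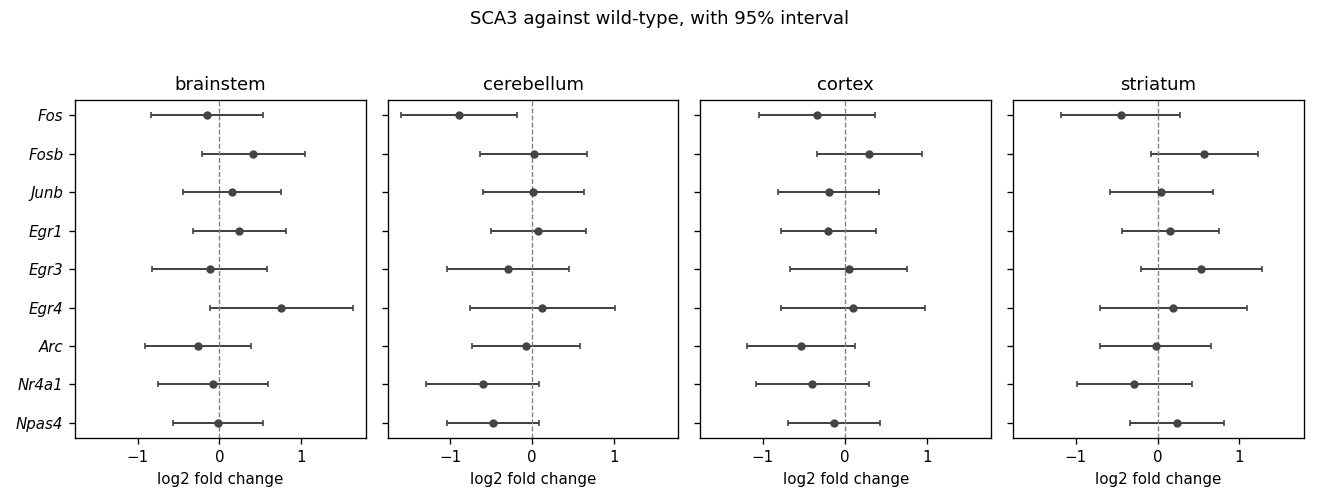
Log2 fold change of SCA3 against wild-type for the 9 genes in brainstem, cerebellum, cortex and striatum, with points at the edgeR estimate and bars at the 95% interval. The bars cross 0 in every panel but for Fos in cerebellum, whose adjusted p was 1.

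Fos in cerebellum had the largest difference. Its wild-type CPM were 5.62 and 19.6 in series A, 16.2 in series B and 37.4, 39.5, 53.4 and 63.3 in series C. The SCA3 CPM were 12.2 and 12.9 in series A, 11.2 in series B and 11.5, 13.1 and 47.6 in series C. Thus 5 of 6 SCA3 libraries lay in a narrow band, below all wild-type libraries but 1, whereas that of mouse 9083513 lay among the higher wild-type libraries. The log2 fold change was -0.89 (SE 0.36, 95% interval -1.60 to -0.18, FDR 1). In the cerebellum libraries alone it was also -0.89, with an unadjusted likelihood ratio test p of 0.0669, against 0.015 over all libraries. Within series C, where genotype goes with mouse number and age, it was -1.01 (FDR 1). With the series as a covariate it was -0.75 (FDR 1). Within series A, an alternative chosen after seeing the data, it was -0.01 (FDR 0.999), so that the difference did not hold there, and series B has 1 mouse of each genotype. Whether the series differed was not tested. Without mouse 9083513 it was -1.46 (FDR 0.0506), the lowest adjusted p over its 26 alternatives, which ran up to 1. In the combined test, Fos had an FDR of 0.378, which ran from 0.0108 without mouse 9083513 (4% of all genes called) to 0.727 over 23 alternatives. That test took the libraries of a mouse as independent. In limma-voom the combined FDR of Fos was 0.584 with the mouse as replicate block and 0.501 without it. Summed CPM of choroid plexus markers (3 of 7 in the table) ran from 19.6 to 2118 in wild-type and from 658 to 1998 in SCA3 cerebellum libraries, and their part in the Fos values was not tested.

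The other AP-1 factors in cerebellum lay at log2 fold changes of 0.02 for both Fosb (SE 0.33) and Junb (SE 0.32), and the value for Fosb rested on mouse 9083513. Fosb was at 5.37 CPM in that library and at most at 1.48 in the other 5 SCA3 libraries, against 0.613 to 2.93 in wild-type, and without that mouse its log2 fold change was -0.68 (FDR 1). Junb was at 11.1 CPM there and from 5.46 to 7.36 in the others, against 3.85 to 9.18, and without that mouse it was at -0.15 (FDR 1). Nr4a1 in cerebellum had medians of 37.8 CPM in wild-type and 19.8 in SCA3 (15.6 to 48.8), and a log2 fold change of -0.60 (SE 0.35, FDR 1), which was -0.93 (FDR 1) without mouse 9083513. Npas4 had medians of 6.996 and 4.37 CPM, and a log2 fold change of -0.48 (SE 0.29, FDR 1). For Egr1 the cerebellar medians were 42.4 and 41.7 CPM, and the log2 fold change was 0.08 (SE 0.30), against -0.07 without mouse 9083513. Mouse 9083513 gave the highest SCA3 cerebellum library for 7 of the 9 genes and stood above the SCA3 mean for 9 of 9 in cerebellum and in cortex.

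In striatum the SCA3 libraries, of mice 7267054, 7267056, 9082853, 9083514 and 9083515 in this order, had Fos at 13.4, 16.6, 9.80, 13.8 and 14.6 CPM, against 10.97 to 30.6 in wild-type. The log2 fold change was -0.45 (SE 0.37, FDR 0.485). Egr1 had SCA3 values of 283, 320, 320, 387 and 390 CPM inside the wild-type range of 87.9 to 542. Fosb had SCA3 values of 25.5, 28.1, 19.6, 27.4 and 35.1 CPM, against 5.37 to 26.6 in wild-type, the log2 fold change being 0.57 (SE 0.33, FDR 0.284). Egr3 had SCA3 values of 210, 242, 199, 201 and 227 CPM, against 47.1 to 257, the log2 fold change being 0.53 (SE 0.38, FDR 0.387). For 9 of 9 genes the range of CPM was narrower in the 5 SCA3 than in the 8 wild-type libraries. A range widens with the number of libraries, and the share of all genes with a narrower SCA3 range was not computed. For 9 of 9 genes the lowest wild-type library was also 1 of the 2 high in thalamus markers, of mice 7267058 and 7267059. Arc ran from 70.1 to 158 CPM in SCA3, against 57.4 to 196 in wild-type, and Npas4 from 17.4 to 49.2, against 7.33 to 53.8. Summed CPM of the 12 thalamus markers ran from 379 to 756 in SCA3 and from 391 to 3777 in wild-type striatum, and 8 of the 12 were called lower in SCA3, where 5.47% of all genes were.

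With the thalamus marker score as a covariate in the striatum libraries alone, Fos was the 1 gene of 9 called, where 0.954% of all genes were, and was lower in SCA3 at a log2 fold change of -0.69 (FDR 0.0308, where over 29 alternatives the FDR ran from 0.0308 to 0.719). In the striatum libraries alone without that score, Fos was at -0.45 (FDR 0.36). With the score as a covariate Nr4a1 was at -0.68 (FDR 0.0966) and Arc at -0.42 (FDR 0.161). Junb, Egr1, Egr4 and Npas4, whose log2 fold changes had been 0.05, 0.16, 0.19 and 0.24, turned to -0.43, -0.18, -0.26 and -0.21. Fosb and Egr3 stayed above 0, at 0.17 and 0.22. Without the 2 libraries high in thalamus markers 0 of 9 genes were called (2.34% of all genes): Fos was at -0.62 (FDR 0.481) and Nr4a1 at -0.61 (FDR 0.385), Arc, Junb, Egr1, Egr4 and Npas4 were at -0.26, -0.28, -0.13, -0.16 and -0.03, and Fosb and Egr3 at 0.30 and 0.28. Within series A, where these 2 libraries were among the 3 wild-type ones, 4 of 9 genes were called higher in the 2 SCA3 libraries (18.6% of all genes called in either direction), namely Junb by 1.83 (FDR 0.000131), Egr4 by 2.25 (FDR 0.00177), Npas4 by 1.39 (FDR 0.0059) and Fosb by 1.35 (FDR 0.0203). Over their 29 alternatives (28 for Egr4) the FDR ran up to 0.981, 0.985, 0.98 and 0.786 in this order. Within series C, which holds neither library, 0 of 9 were called, where 0.242% of all genes were, and Junb was at -0.56, Egr4 at -0.16, Npas4 at 0.08 and Fosb at 0.48.

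In brainstem the gene with the largest difference was Egr4, at 0.186, 0.783 and 2.34 CPM (lowest, median and highest) in wild-type and 1.04, 1.46 and 2.23 in SCA3, the log2 fold change being 0.75 (SE 0.44, FDR 0.455). It was 0.38 within series C and 1.72 within series A, and ran from 0.60 to 1.13 on leaving out 1 mouse in turn, the FDR lying between 0.129 and 0.883 over all alternatives. In brainstem RIN had medians of 7.3 in wild-type and 7.9 in SCA3. In cortex it was Arc, at 44.3, 95.2 and 566 CPM in wild-type and 64.1, 123 and 207 in SCA3, the log2 fold change being -0.53 (SE 0.34, FDR 1) while the SCA3 median was the higher one. The highest wild-type library was that of mouse 9083373, without which the log2 fold change was 0.10 (FDR 0.999), and leaving out 1 mouse in turn gave -0.73 to 0.10. Within series A it was 1.37 (FDR 0.164).

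Whether a gene that was high in one region of a mouse was also high in another was asked over mice, for 9 genes and 6 pairs of regions, 54 relations in all, from deviations of log2 CPM from the means of region and genotype. Pearson's r was above 0 in 46 of 54, where 62.4% to 77.5% of all genes were positive in a pair of regions. A positive r with a permutation p below 0.05 was found for 4 of 9 genes between brainstem and cerebellum (10.4% of all genes), 2 between brainstem and cortex (8.62%), 3 between brainstem and striatum (19.2%), 2 between cerebellum and cortex (18.8%), 5 between cerebellum and striatum (11.4%) and 0 between cortex and striatum (8.44%). The median r of the 9 genes exceeded that of all genes in each pair of regions, at 0.344 against 0.142, 0.283 against 0.135, 0.511 against 0.282, 0.363 against 0.245, 0.572 against 0.175 and 0.232 against 0.109 in the same order. This order did not hold under every alternative. Between brainstem and striatum the median of the 9 genes was 0.291 against 0.306 without mouse 7267059, where 0 genes had a positive r with a p below 0.05. It was 0.087 against 0.175 after regression on RIN. Among the alternatives that were added once the data had been seen, it was 0.0969 against 0.216 after regression on marker scores, -0.118 against 0.198 with series means removed, and -0.589 against 0.111 over the 6 mice of series C alone, where r was above 0 for 1 of 9 genes. Between cortex and striatum it was 0.0526 against 0.14 without mouse 7267058, and between cerebellum and cortex 0.231 against 0.243 without mouse 7267055.

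Past adjustment over all 12372 genes were 2 of the 54 relations, both between cerebellum and striatum (1.08% of all genes). For Junb r was 0.868 over 12 mice (permutation p = 0.0005, FDR 0.0472) and Spearman's rho 0.79 (permutation p = 0.00332), and for Egr4 r was 0.827 (permutation p = 0.00041, FDR 0.0423) and rho 0.804 (permutation p = 0.0024). Without the 2 mice farthest from the median cerebellar level r was 0.645 for Junb and 0.804 for Egr4. Fos between the same regions had r of 0.713 (permutation p = 0.0102, FDR 0.21) and rho of 0.832 (permutation p = 0.00128), and r of 0.624 without the 2 farthest mice. Between brainstem and cerebellum Fos had r of 0.721 (permutation p = 0.00556, FDR 0.154) and Junb 0.703 (permutation p = 0.00722, FDR 0.179), and between brainstem and cortex Junb had 0.732 (permutation p = 0.00371, FDR 0.212). Fos, Junb, Egr4 and Nr4a1 were positive in 6 of 6 pairs of regions, with r from 0.5 to 0.721, from 0.392 to 0.868, from 0.283 to 0.827 and from 0.204 to 0.654. Egr3, by contrast, ran from -0.136 to 0.344, and Npas4 from -0.323 to 0.469.

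Both adjusted calls depended on single mice and on the number series. Without mouse 7267059, r between cerebellum and striatum was 0.665 for Junb (FDR 0.292) and 0.766 for Egr4 (FDR 0.175), and the median of the 9 genes fell from 0.572 to 0.203, against 0.213 over all genes. Over all alternatives the FDR ran from 0.0217 to 0.979 for Junb and from 0.0186 to 0.928 for Egr4. With deviations taken from the means of region, genotype and number series, chosen after seeing the data, r was 0.464 for Junb (FDR 0.537) and 0.211 for Egr4 (FDR 0.811). Within series C alone it was 0.0593 for Junb over 6 mice (FDR 0.979) and 0.225 for Egr4 (FDR 0.928), where 0% of all genes passed, so that these FDR say nothing of the relation. For series A and B, with fewer than 6 mice each, no r was computed. Between cerebellum and striatum the median r of the 9 genes was 0.211 with series means removed, against 0.223 over all genes. It was 0.0593 in series C alone, against 0.235. After regression on RIN it was 0.32, against 0.109, and after regression on marker scores 0.252, against 0.171. Between cortex and striatum the median r of the 9 genes depended on the setting: it was -0.616 over 10 mice with series means removed, against -0.0788 over all genes, -0.67 over the 6 mice of series C alone, against -0.107, and 0.364 after regression on marker scores, against 0.157. Since the 9 genes varied together within both regions, they are not separate observations of such a relation. After regression on RIN within each region, Junb had r of 0.797 (FDR 0.26) and Egr4 0.447 (FDR 0.805). After regression on the thalamus and cortical marker scores, Junb was at 0.252 (FDR 0.823) and Egr4 at 0.659 (FDR 0.319). The part of dissection, RIN and series in these relations was not tested.

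**Figure D5:**
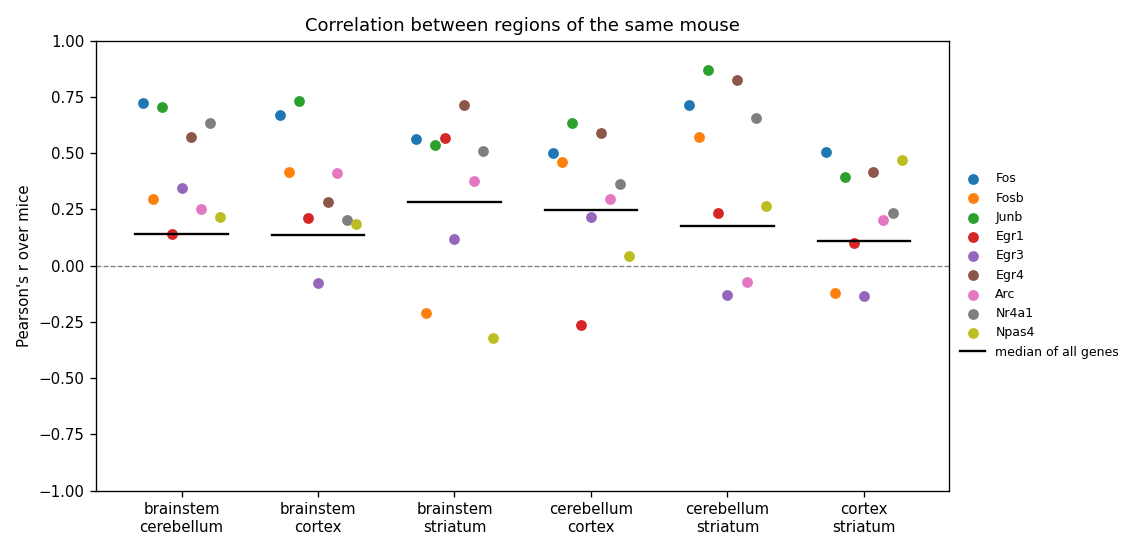
Pearson's r over 12 or 13 mice between the levels of a gene in 2 regions of the same mouse, for the 9 genes (coloured points) and 6 pairs of regions, with black bars at the median of all genes. Junb (0.868) and Egr4 (0.827) between cerebellum and striatum are the highest points.

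Other genes of the pathway were read from 4 lists. Of 14 further inducible transcription regulators, 15 inducible feedback regulators and 10 inducible synaptic and secreted effectors with a row (of 20, 15 and 13 listed), 0 were called between the genotypes in each of the 4 regions, where 1.92%, 0.0647%, 0.154% and 7.54% of all genes were called in brainstem, cerebellum, cortex and striatum. Those with the smallest p were, among the regulators, Csrnp1 in brainstem at a log2 fold change of 0.46 (FDR 0.133), Fosl2, an AP-1 factor, in cerebellum at -0.62 (FDR 1), and Ier2 in striatum at -0.67 (FDR 0.143). Among the feedback regulators they were Nab1, a repressor of Egr factors, at -0.35 (FDR 0.0882), Sik1, a kinase that restrains CREB coactivators, at -0.64 (FDR 0.0986), and Spry4 at -0.43 (FDR 0.142), all in striatum. Among the effectors, the Polo-like kinases Plk2 and Plk3 were at 0.46 (FDR 0.0675) and -0.47 (FDR 0.0809) in striatum, and the prohormone convertase gene Pcsk1 at -0.48 (FDR 1) in cerebellum.

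Of 21 upstream kinases and constitutive factors, 21 had a row and 3 were called, all higher in SCA3 striatum, where 2.07% of all genes were called higher. These were Rps6ka3, the kinase RSK2 that phosphorylates CREB and SRF, by 0.49 (SE 0.12, FDR 0.00197), Camk4, a nuclear calcium-dependent CREB kinase, by 0.60 (SE 0.18, FDR 0.0229), and Crebbp, the coactivator CBP, by 0.26 (SE 0.09, FDR 0.0477). The fold change was positive for 20 of 21 there, with a median of 0.20 against 0.00 over all genes. With the thalamus marker score in the striatum libraries alone it was positive for 16 of 21, with a median of 0.08, and without the 2 libraries high in thalamus markers for 18 of 21, with a median of 0.125. Without the 2 wild-type libraries high in thalamus markers Rps6ka3 was at 0.42 (FDR 0.0312), Camk4 at 0.52 (FDR 0.142) and Crebbp at 0.20 (FDR 0.27), where 2.34% of all genes were called, and with the thalamus marker score as a covariate in the striatum libraries alone they were at 0.37, 0.41 and 0.18, and 0 of 21 were called, where 0.954% of all genes were. In the striatum libraries alone without that score, 0 of 21 were called as well (FDR 0.146, 0.231 and 0.152), where 0.711% of all genes were. Over 29 alternatives the call was lost in 5 for Rps6ka3, 13 for Camk4 and 19 for Crebbp, among them leaving out 1 mouse for 0, 7 and 10 of the 14 mice, with FDR up to 0.0209, 0.118 and 0.195. In brainstem, cerebellum and cortex 0 of 21 were called, where at most 1.92% of all genes were.

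The genes most like the 9 were sought among all others by Pearson's r between a gene's deviations and the mean deviation of the 9 over 53 libraries of 14 mice. The first 10 were Stx6 (0.894), Tnfrsf25 (0.876), Per1 (0.869), Srf (0.866), Tmem198 (0.856), Nab2 (0.837), B4galnt1 (0.836), Cdk5r2 (0.824), Cacnb1 (0.822) and Sec14l1 (0.821). Stx6 codes for a syntaxin of the trans-Golgi network, Per1 for a clock component that is itself inducible, Srf for the factor that binds CArG boxes, and Nab2 for a repressor of Egr factors. For Stx6 r was 0.874 in brainstem, 0.553 in cerebellum, 0.964 in cortex and 0.963 in striatum. For Srf it was 0.726, 0.821, 0.783 and 0.977 in the same order. Of the pathway lists, 7 of 14 further transcription regulators, 7 of 15 feedback regulators, 3 of 10 effectors and 5 of 21 upstream genes had r above 0.5, against 11% of all genes.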

How the data were processed

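Brainstem, cerebellum, cortex and striatum RNA was made into non-strand-specific poly-A libraries. Per the labels and the methods of the study, the authors aligned reads to GRCm38 (mm10) with STAR 2.3.0e, counted them per gene with HTSeq 0.6.1 and deposited whole-number counts of genes with a mean of at least 4 CPM. Samples were grouped by labelled region and genotype. The members and gene lists were chosen with earlier results of these data known; all listed members with a row, list genes called or with the smallest p, and the 10 most alike genes are named.

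Counts were tested for all 12372 genes in edgeR 4.0.16 (TMM, tagwise dispersion, likelihood ratio test over 53 libraries and 8 groups, as in the methods of the study) with Benjamini-Hochberg adjustment. The 95% intervals come from the standard errors. Alternatives used edgeR's quasi-likelihood test, DESeq2 1.42.0, limma 3.58.1 (voom), other scaling and filters, RIN, number series or marker scores as covariates, series A or C alone, and leaving out each mouse. Log2 CPM took a prior count of 2. Correlations over mice used 100000 permutations, two-sided, with adjustment over all genes of a pair of regions instead of the planned 54 relations alone. A marker score is the mean log2 CPM of a list. Scripts were tested on simulated data in R 4.3.3 and Python 3.11.15 (numpy 2.4.6, pandas 2.3.3). Each mouse is 1 replicate per region, and the mouse was a block across regions in an alternative. Library totals of 31.7 to 76.7 M counts limited precision for Egr4, Egr3 and Fosb in brainstem and cerebellum, where single libraries held 6, 21 and 24 counts.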

Additional observations from a re-analysis of the deposited data

Results flagged for a closer look

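Of 72 groups of a gene, region and genotype, 5 held a library whose gap to the others exceeded Dixon's 95% limit, and chance alone flags about 1 in 20 groups. The cerebellum library of SCA3 mouse 9083513 accounted for 4. Fos was at 47.6 CPM there, against 11.2 to 13.1 in the other 5 SCA3 cerebellum libraries. Egr1 was at 67.1 CPM, against 38.6 to 43.8. Egr4 was at 8.61 CPM, against 2.64 to 4.11, and Arc at 30.1 CPM, against 20.4 to 23.3. Its summed CPM of choroid plexus markers, 1927, lay inside the range of the SCA3 cerebellum libraries (658 to 1998). In cortex, Egr4 was at 5.17 CPM in the library of wild-type mouse 7267055, against 21.9 to 49 in the other 6 wild-type libraries. The cause of these values was not tested.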

How the results depend on the processing

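The genotype counts of 0 of 9 stood in 153 of 156 alternatives over the 4 regions, the combined test and the test of region dependence. The exceptions were 1 gene (Fos) in striatum with the thalamus marker score in the striatum libraries alone (0.954% of all genes), 4 genes in striatum in mouse series A alone (18.6%), chosen after seeing the data, and 1 gene (Fos) in the combined test without mouse 9083513 (4%), where leaving out 1 mouse in turn gave 0 to 1. For single genes, 77 of 977 genotype values per region changed sign, none of them called. The wild-type region counts stayed within 1.5 times in 147 of 147 alternatives, and only Fos lost calls, 23 in all. Requiring 10 counts in every library left 12337 genes and no Egr4. With the mouse as replicate block in limma-voom (correlation within a mouse 0.14), 0 of 9 genes were called between the genotypes in every region, and brainstem against cerebellum kept 4 of 5 calls (without Fos). The count of 2 relations between regions of a mouse was 2 with DESeq2-type size factors and with a prior count of 0.5. It was 0 with deviations from the region mean, in wild-type mice only, after regression on RIN, with Spearman's rho, and, chosen after seeing the data, in mouse series C alone, with series means removed, after regression on marker scores, and with mice permuted within their genotype. In series C alone and in wild-type mice only, 0% of all genes passed, so that these counts say nothing of the relations; in wild-type mice (n = 7) r between cerebellum and striatum was 0.896 for Junb and 0.857 for Egr4. Permuting within genotype left r at 0.868 and 0.827, and 0.0647% of all genes passed there. Leaving out 1 mouse gave 0 to 2, and without mouse 9082857 Egr4 was also past the threshold between brainstem and striatum (r = 0.834, FDR 0.0418 against 0.103). The causes were not tested. Depth limits the values of Egr4, Egr3 and Fosb in brainstem and cerebellum, where their lowest counts were 6, 21 and 24. No alternative reversed a call.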
